A study of Mus musculus with 7 samples.

Results

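Camk1g and 9 related genes encode the calcium/calmodulin-dependent protein kinases described here, in sorted pancreatic beta cells of young mice. They were taken by gene name: Camk1, Camk1d and Camk1g of the CaMKI branch, Camk2a, Camk2b, Camk2d and Camk2g of the CaMKII branch, Camk4, and the activating kinases Camkk1 and Camkk2. Camk1g was picked because its values differ between early-weaned and suckling mice on these same arrays, and its relatives were added by name, so the differences of all these genes are given as a description with no test. Of the 10 genes, 9 were measured among 19938 genes, each by 1 probe set, and expression of Camkk1 was not analysed here.

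Beta cells were sorted at postnatal day 25 by a yellow fluorescent protein that an insulin-Cre transgene had switched on from the Rosa26-LSL-YFP allele, in mice of the ICR background. All mice of both groups carried Cre and reporter. The groups were 3 mice weaned prematurely at postnatal day 18 and 4 mice that were still suckling, with between 2000 and 6000 cells per mouse and 1 array each. The reporter marks cells in which the insulin promoter has driven Cre at any time, and all 10 measured beta-cell markers were above background in both groups. Their group means ran from 5.83 and 6.01 log2 units for Mafa, through 8.25 and 8.27 for Ins2 and 9.09 and 8.76 for Pdx1, to 12.5 and 12.5 for Iapp (weaned first). Hormones of other islet cells also gave high signal, with Gcg at 12.0 and 12.1, Sst at 11.8 and 12.0 and Ppy at 11.5 and 11.2. Ins2 lay well below all of these and Ins1 was not measured. The reason for the lower Ins2 reading was not tested.

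A rise in cytosolic calcium, which in beta cells follows glucose metabolism and membrane depolarisation, loads calmodulin with calcium. Calcium-loaded calmodulin binds the kinases of this family and releases their active site from an inhibitory segment. CaMKI and CaMKIV are further switched on when a CaMK kinase phosphorylates their activation loop, whereas CaMKII forms large multi-subunit rings that phosphorylate themselves. Known effects of the family in excitable and endocrine cells include vesicle release, cytoskeletal change and CREB-dependent transcription.

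Camk1g transcript was higher in every weaned mouse than in any suckling mouse. The gene encodes CaMKI gamma, also called CLICK-III, an isoform that is anchored to membranes by lipid groups. Its log2 intensity was 5.67, 5.56 and 5.51 on weaned replicates 4, 5 and 12. On suckling replicates 2, 9, 11 and 12 it was 4.57, 4.46, 4.50 and 4.94. The groups do not overlap, and the lowest weaned array lies 0.57 log2 units above the highest suckling array, which is wider than the range within either group (0.16 for weaned and 0.48 for suckling). Group means were 5.58 ± 0.08 (SD, n = 3) and 4.62 ± 0.22 (SD, n = 4). The difference, weaned minus suckling, was 0.96 log2 units (SE 0.14, 95% interval 0.66 to 1.27), or 1.95-fold (1.58 to 2.42). Among all genes 17 had a larger upward difference. In sorted cells measured in bulk, more RNA per cell and more cells that express the gene cannot be told apart.

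**Figure D1:**
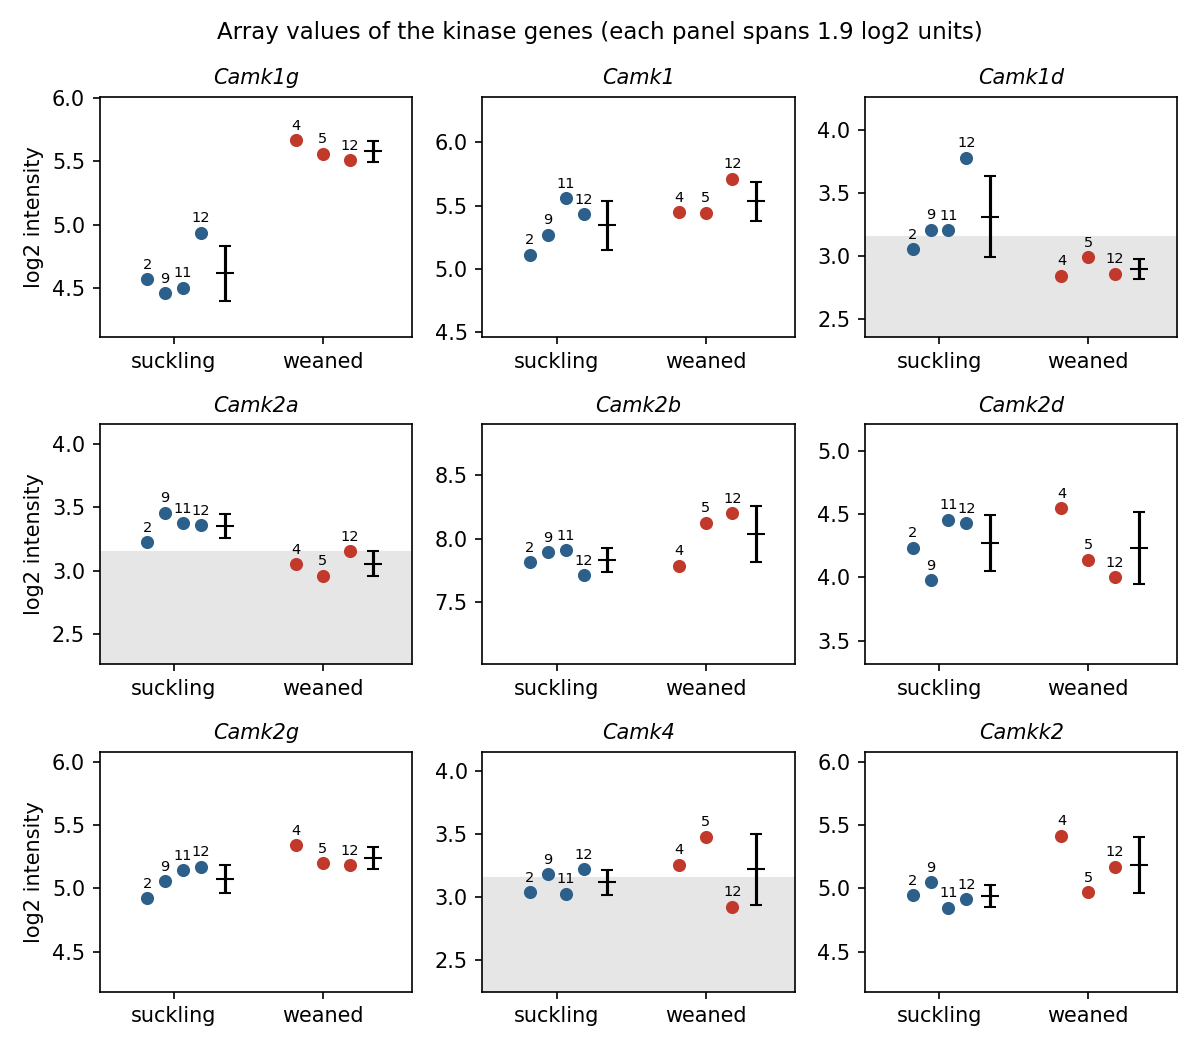
Log2 intensity of the 9 measured kinase genes on each array, with suckling mice in blue and weaned mice in red and the replicate number beside each point. Bars give the mean and SD of each group (n = 4 and n = 3), grey marks the background range up to 3.15 log2 units, and every panel spans 1.9 log2 units. The weaned points of Camk1g lie at 5.51 to 5.67 and its suckling points at 4.46 to 4.94.

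Acinar signal, sex-linked signal and a code in the sample descriptions are given beside this difference. Acinar markers, mostly digestive enzyme genes, were lower in mean in weaned mice for 14 of 14 measured, with a median difference of -1.53 and 0 called by limma at an adjusted p under 0.05. The 14 include the transcription factor gene Ptf1a, which was within background in both groups and differed by -0.002. On weaned replicates 4, 5 and 12 that list had a mean log2 level of 3.63, 3.65 and 5.78. It was 7.63, 7.39, 3.91 and 4.71 on suckling replicates 2, 9, 11 and 12, so the groups overlap. Fitted beside the acinar level, the Camk1g difference was 0.89 (SE 0.16), and without suckling replicates 2 and 9, which have the most acinar signal, it was 0.86 (SE 0.17). The part of acinar RNA in the difference was not tested. Mice of both sexes were present in each group by Xist and Y-linked signal, and weaned replicate 12 showed neither. The Camk1g difference was 1.03 between the 1 weaned and 2 suckling arrays with Xist signal and 0.97 between the 1 weaned and 2 suckling arrays with Y-linked signal. With 1 weaned array on each side these are values with no spread, and the part of sex was not tested. The sample descriptions carry the code L13 on all weaned and L14 on all suckling arrays, and what these codes mark cannot be told apart from weaning.

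**Figure D2:**
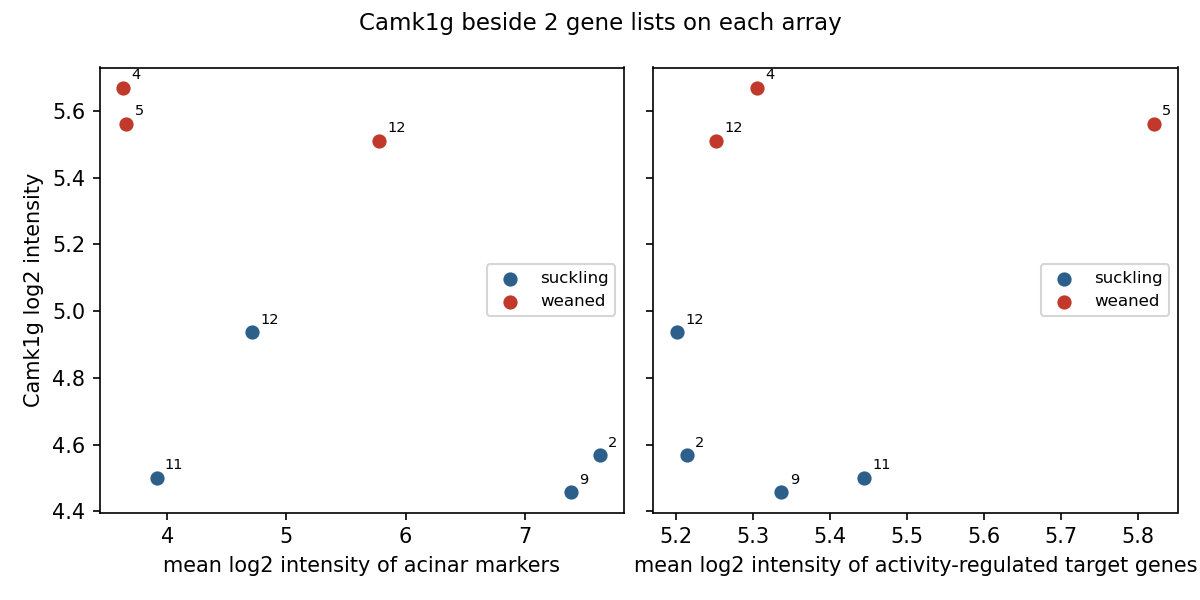
Log2 intensity of Camk1g (vertical axis) on each array against the mean log2 intensity of 14 acinar markers (left) and of 18 activity-regulated target genes (right), with replicate numbers beside the points. Weaned arrays (red) lie above 5.5 on the vertical axis at acinar levels of 3.63 to 5.78, and suckling arrays (blue) lie below 5.0 at acinar levels of 3.91 to 7.63.

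Markers of other cells differed widely in signal. Endothelial, leukocyte and stromal lists had means of 2.87 to 3.89 log2 units on all arrays, and both group means lay within background for 5 of 8, 4 of 9 and 3 of 8 of their markers. The leukocyte marker C1qa was an exception at 8.08 in weaned and 7.74 in suckling mice. Neuron and glia markers, of interest because neurons are rich in several of these kinases, had list means of 4.28 to 4.43 on weaned and 4.36 to 4.75 on suckling arrays. Among them Snap25, which endocrine cells also express, stood at 8.73 and 8.87. Duct markers had list means of 5.40 to 5.75 and 5.39 to 6.20, with Krt7 at 8.19 and 8.14. Hormone and transcription factor genes of other islet cells had list means of 8.45 to 8.72 and 8.38 to 8.69.

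Some of these markers had differences that ran with the groups, although none was called by limma over all genes. The duct marker Muc1 differed by -0.65 (SE 0.20), the pericyte marker Rgs5 by -0.54 (SE 0.19, weaned mean within background) and the collagen gene Col1a2 by -0.29 (SE 0.12), each with groups that do not overlap. The neuronal tubulin gene Tubb3 differed by -0.79 (SE 0.36) and C1qa by 0.34 (SE 0.15), with overlapping groups. Of the beta-cell markers, Pdx1 differed by 0.33 (SE 0.13). The limma adjusted p values of these 6 lay between 0.552 and 0.662. Their part in the Camk1g difference was not tested. Groups did not overlap for 7.32% of all genes. The lists that hold these markers had median differences near 0. These were 0.04 for duct, -0.08 for stroma, -0.08 for leukocyte, -0.10 for neuron and glia and -0.02 for beta-cell markers. The weaned mean was higher for 3 of 5, 2 of 8, 3 of 9, 1 of 6 and 4 of 10 of them, in that order. For other islet endocrine markers the median difference was -0.11, with the weaned mean higher for 3 of 8. Among these, the alpha-cell marker Irx2 differed by -0.31 (SE 0.14, limma adjusted p = 0.663), with overlapping groups.

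The upstream sequence of Camk1g is shown because it holds the fewest CpG of the kinase windows, beside that of Camk1. RefSeq promoter windows (build GRCm38.p6, 250 bases before to 50 after the annotated start) were matched by symbol for Camk1, Camk1d, Camk1g, Camk2b, Camk2d, Camkk1 and Camkk2, that is 7 of the 10 genes. Windows of Camk2a, Camk2g and Camk4 were not used here. The Camk1g window holds 1 CpG dinucleotide and is 44.7% G or C. The stretches upstream of the outermost annotated transcript start follow, read 5′ to 3′ along the gene's strand, with each CpG in capitals. The Camk1g stretch is chr1:193370356-193370532 and the Camk1 stretch is chr6:113343923-113344172, both on the minus strand.
Camk1g: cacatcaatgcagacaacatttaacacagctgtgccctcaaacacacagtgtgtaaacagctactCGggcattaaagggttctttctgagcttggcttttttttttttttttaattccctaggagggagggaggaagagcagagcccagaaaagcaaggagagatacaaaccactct
Camk1: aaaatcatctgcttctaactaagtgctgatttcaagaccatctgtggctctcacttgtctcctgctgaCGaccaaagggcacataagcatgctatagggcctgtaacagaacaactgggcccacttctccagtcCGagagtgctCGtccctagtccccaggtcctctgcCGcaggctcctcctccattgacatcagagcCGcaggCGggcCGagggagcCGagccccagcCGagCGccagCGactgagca

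The Camk1 window holds 15 CpG and is 60.0% G or C. The windows of Camk2d, Camkk1, Camkk2 and Camk2b hold 31, 36, 42 and 51 CpG. Camk1d has 2 annotated windows, with 29 and 5 CpG. Over the 32851 windows of the same length outside chromosome 18, which all shares below refer to, the median is 7 CpG, and 14.1% hold at most 1. Both strands of each window were searched for 6 short motifs. The cAMP response element, TGACGTCA, was in no kinase window and in 1.79% of all windows. Its shorter form, TGACG, which the full element contains, was in the windows of Camk1 and Camkk1 and in 20.8% of all. The NFAT core, TGGAAA, was in 1 window of Camk1d and in 21.4% of all. The E-box searched, CACGTG, was in no kinase window and in 7.15% of all. The GC box, GGGCGG, was in those of Camk1d, Camk2b, Camk2d, Camkk1 and Camkk2 and in 35.7% of all. The TATA box, TATAAA, was in no kinase window and in 13.6% of all. The Camk1g window held none of the 6.

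Camkk2, the kinase that phosphorylates CaMKI, CaMKIV and AMP-activated kinase, was measured at 5.41, 4.97 and 5.17 log2 units on weaned replicates 4, 5 and 12. On suckling replicates 2, 9, 11 and 12 it was 4.94, 5.05, 4.85 and 4.92. Weaned replicate 4 stands highest and the groups overlap, since weaned replicate 5 lies below suckling replicate 9. The difference was 0.24 (SE 0.13, 95% interval -0.05 to 0.54). It ran from 0.13 without weaned replicate 4 to 0.35 without weaned replicate 5.

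The other CaMKI genes had smaller differences, of either sign. Camk1, which encodes the widely expressed CaMKI alpha, ranged from 5.44 to 5.71 in the weaned group and overlapped the suckling range of 5.11 to 5.56. Its difference was 0.19 (SE 0.14, interval -0.12 to 0.50), and it was 0.10 without weaned replicate 12 and 0.04 without suckling replicates 2 and 9. Camk1d, which encodes CaMKI delta, was dim. It stood at 2.84, 2.99 and 2.86 on weaned replicates 4, 5 and 12, all within the background range of 1.80 to 3.15 log2 units. This range was taken from 16 values of Xist and the Y-linked genes Eif2s3y, Uty and Kdm5d on arrays without their signal. Its upper part rests on Kdm5d (2.73 to 3.15), since the values of the others do not exceed 2.52. Levels near its upper edge therefore do not tell presence from absence. On suckling replicates 2, 9, 11 and 12 Camk1d stood at 3.06, 3.21, 3.20 and 3.78, so that suckling replicate 12 alone was well above background. The difference was -0.41 (SE 0.17, interval -0.80 to -0.03), opposite in sign to that of Camk1g. It was -0.26 without suckling replicate 12 and -0.59 without suckling replicates 2 and 9. Because the weaned level is at background, its size is not a fold of transcript. Suckling replicate 12 was the highest suckling array for both Camk1g and Camk1d.

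Camk4, which encodes a largely nuclear kinase that phosphorylates CREB, was at the edge of background in both groups. Weaned arrays ranged from 2.92 to 3.48 and suckling arrays from 3.03 to 3.22, and 4 of the 7 arrays were above background. The difference was 0.10 (SE 0.14, interval -0.22 to 0.43) and turned to -0.03 without weaned replicate 5, and it was 0.25 without weaned replicate 12.

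Genes of CaMKII, the holoenzyme linked to insulin granule release, had small differences in both directions. Camk2b was well above background on every array, at 7.79, 8.13 and 8.20 on weaned replicates 4, 5 and 12. On suckling replicates 2, 9, 11 and 12 it was 7.81, 7.90, 7.91 and 7.71. The groups overlap through weaned replicate 4 alone, and the difference was 0.21 (SE 0.13, interval -0.09 to 0.50), or 0.33 without that array and 0.12 without weaned replicate 12. Camk2g, a broadly expressed subunit, ranged from 5.19 to 5.34 in weaned and from 4.92 to 5.17 in suckling mice. Its groups are separated by 0.01 log2 units, less than the spread within either group, and the difference was 0.17 (SE 0.11, interval -0.08 to 0.42). That difference was 0.09 fitted beside the acinar level and 0.08 without suckling replicates 2 and 9. Camk2d, the main subunit of heart muscle, ranged from 4.00 to 4.55 and from 3.98 to 4.46. Its difference of -0.04 (SE 0.17, interval -0.42 to 0.33) was -0.20 without weaned replicate 4 and -0.22 fitted beside the acinar level. Its sign turned when weaned replicate 12 (0.07) or 5 (0.00056), or suckling replicate 11 (0.02) or 12 (0.0063), was left out.

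Camk2a, the subunit typical of forebrain neurons, was dim in these cells. Weaned replicates 4, 5 and 12 gave 3.05, 2.96 and 3.16 log2 units, with a mean within background. Suckling replicates 2, 9, 11 and 12 gave 3.23, 3.46, 3.38 and 3.36, just above it. Both groups lie too near the edge of that range to tell presence from absence. The groups do not overlap, with a gap of 0.07, and the difference was -0.30 (SE 0.11, interval -0.55 to -0.05).

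Across the 9 measured kinase genes, 0 were among the genes called by limma at an adjusted p under 0.05 (Benjamini-Hochberg over all genes), where 0.015% of all genes were called, 0.00502% higher and 0.01% lower in weaned mice. The groups of arrays did not overlap for Camk1g and Camk2g, higher in weaned mice, and for Camk1d and Camk2a, lower in weaned mice, while 7.32% of all genes showed no overlap, 3.9% higher and 3.43% lower. Since the family was chosen on this contrast, nothing is read from these counts. The weaned mean was higher for 6 of the 9 and lower for 3, with a median difference of 0.17, or 0.14 for the 8 genes without Camk1g, beside 0.0005 over all genes. Leaving out 1 array moved the difference by over 1.5 times for 6 of the 9, that is for Camk1, Camk1d, Camk2b, Camk2d, Camk4 and Camkk2. A difference near 0 passes this ratio easily, as for Camk2d (-0.04), which 6 of the arrays moved. The pooled SD within groups had a median of 0.18 over the 9 genes, beside 0.19 over all genes.

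**Figure D3:**
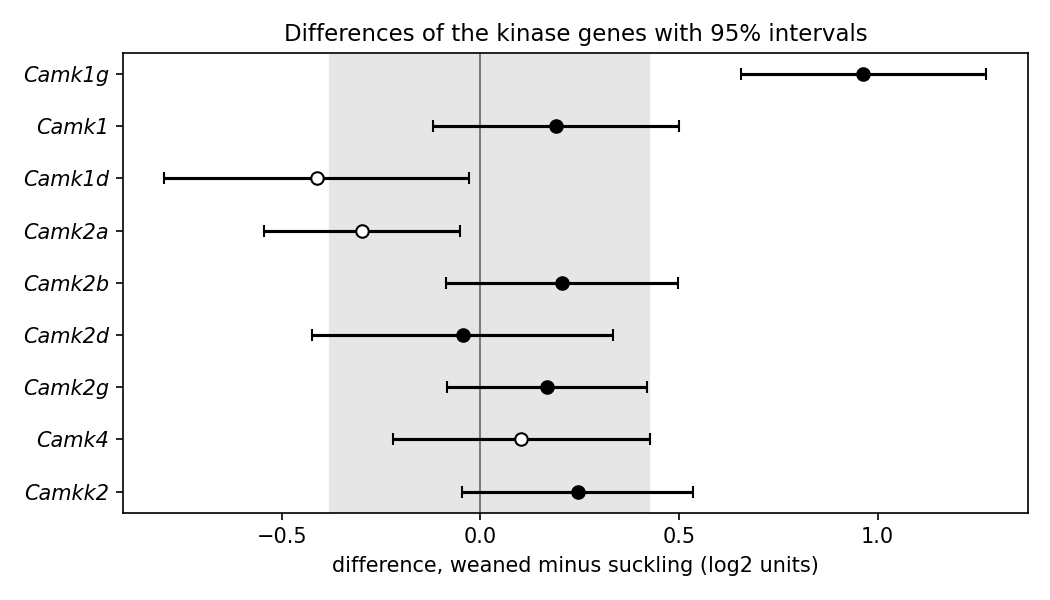
Log2 difference, weaned minus suckling, of the 9 measured kinase genes (points) with 95% intervals (bars). Open points mark genes with a group mean within background, and the grey band holds the middle 95% of all genes, from -0.38 to 0.42. Camk1g lies at 0.96, and the other genes lie between -0.41 and 0.24.

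The order of the mice within a group differed from one kinase gene to the next. Weaned replicate 4 was the highest weaned array for Camk1g, Camk2d, Camk2g and Camkk2 and the lowest for Camk2b and Camk1d. Weaned replicate 12 was the highest for Camk1, Camk2a and Camk2b and the lowest for Camk1g, Camk2d, Camk2g and Camk4. Suckling replicate 2 was the lowest suckling array for Camk1, Camk1d, Camk2a and Camk2g and the highest for none of the 9 genes. Its acinar list mean was the highest of all arrays (7.63). Suckling replicate 9, next at 7.39, was the highest suckling array for Camk2a and Camkk2 and the lowest for Camk1g and Camk2d. The part of acinar signal in these orders was not tested.

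**Figure D4:**
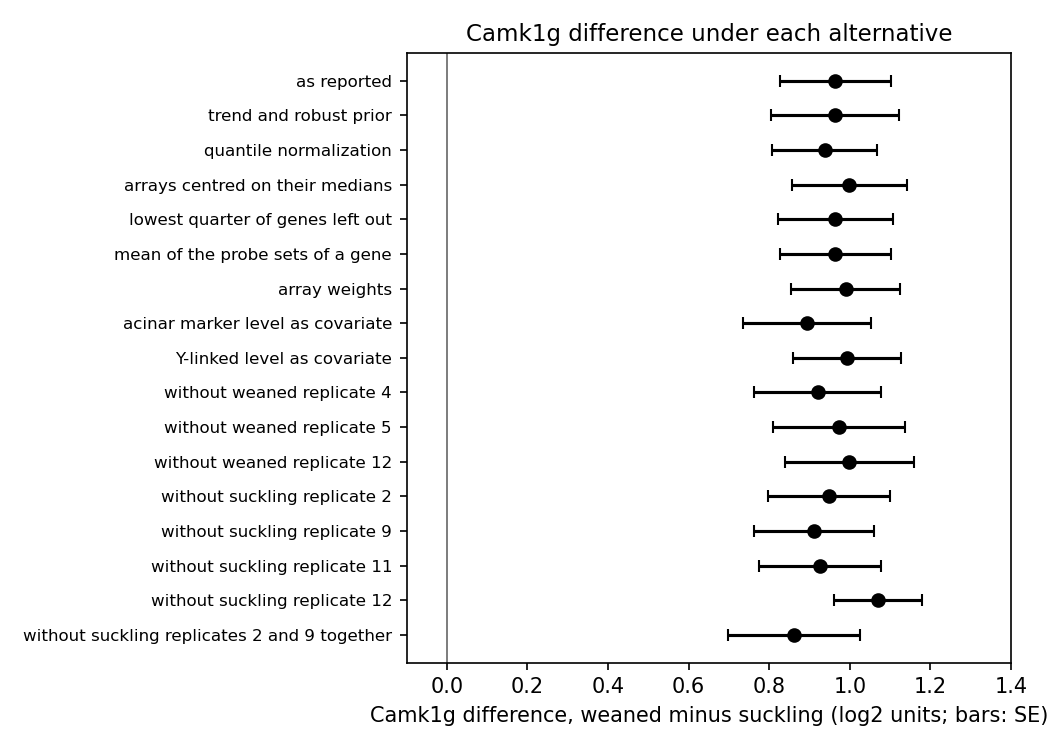
Log2 difference of Camk1g, weaned minus suckling, as reported and under 16 alternative settings (points, with SE as bars). The values lie between 0.86, without suckling replicates 2 and 9 together, and 1.07, without suckling replicate 12.

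The genes with array profiles most like that of Camk1g were Mfng, Fmnl2, Ocel1, Epm2a and Prim1. Likeness was measured over the 7 arrays as the root mean square distance between profiles, each minus its own mean. The profiles span both groups, so the distance largely carries the group difference for which Camk1g was picked. The 5 genes differ in that same contrast by 0.64 to 0.94, and no shared regulation is read from the likeness. The distances were 0.15, 0.17, 0.17, 0.17 and 0.19 log2 units, where the median over 13190 named protein-coding genes above background was 0.52. A gene with the same level on every array would lie at 0.50, the spread of Camk1g itself. Mfng, a Notch-modifying glycosyltransferase, stood at 4.42 ± 0.18 (SD, n = 3) in weaned and 3.55 ± 0.22 (n = 4) in suckling mice. Fmnl2, a formin of the actin cytoskeleton, stood at 7.15 ± 0.01 and 6.50 ± 0.20, and like Camk1g it was highest among suckling mice on replicate 12 (6.79) and lowest on replicate 9 (6.31). Prim1, a DNA primase subunit, stood at 5.59 ± 0.18 and 4.86 ± 0.08, and like Camk1g it was highest on weaned replicate 4 (5.80). Ocel1 and Epm2a, the glycogen phosphatase laforin, differed by 0.81 (SE 0.10) and 0.94 (SE 0.11). The order within groups was not always that of Camk1g. Suckling replicate 9, the lowest for Camk1g, was the highest suckling array for Ocel1 (6.196) and Epm2a (5.224). Prim1 was highest among suckling mice on replicate 2 (4.958). Ocel1 was highest among weaned mice on replicate 12 (6.996), the lowest for Camk1g. Mfng and Fmnl2 shared the highest and lowest array of Camk1g in each group, and Epm2a in the weaned group. Among the kinase genes, Camkk2 was nearest to Camk1g at 0.40 and Camk1d farthest at 0.69.

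The chromosomal neighbours of Camk1g had smaller differences, of either sign. In RefSeq order the 3 nearest measured protein-coding genes on one side are Lamb3, G0s2 and Hsd11b1, with differences of 0.10 (SE 0.13), -0.21 (SE 0.14) and 0.21 (SE 0.15). On the other side they are Plxna2, Cd34 and Cd46, with -0.07 (SE 0.15), -0.14 (SE 0.17) and -0.04 (SE 0.15). Hsd11b1, Cd34 and Cd46 had both group means within background. The smallest adjusted p of the 6 was 0.775 (G0s2, limma), and these genes were chosen by position after the data were seen.

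Around the kinases, 9 lists of calmodulin-pathway genes held 129 measured genes. Of these, 0 were called by limma at an adjusted p under 0.05 and 0 at 0.1, the smallest adjusted p being 0.313. At an unadjusted p under 0.05 there were 5 higher and 2 lower in weaned mice, or 5.43%, beside 7.58% of all genes (4.39% higher and 3.19% lower). The weaned mean was higher for 70 and lower for 59, with a median difference of 0.02. Of the 24 pathway genes named in what follows, leaving out 1 array moved the difference of 17 by over 1.5 times. A difference near 0 passes this ratio easily, as for Ppp3ca (-0.001), which each of the 7 arrays moved. The share over all genes was not counted.

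**Figure D5:**
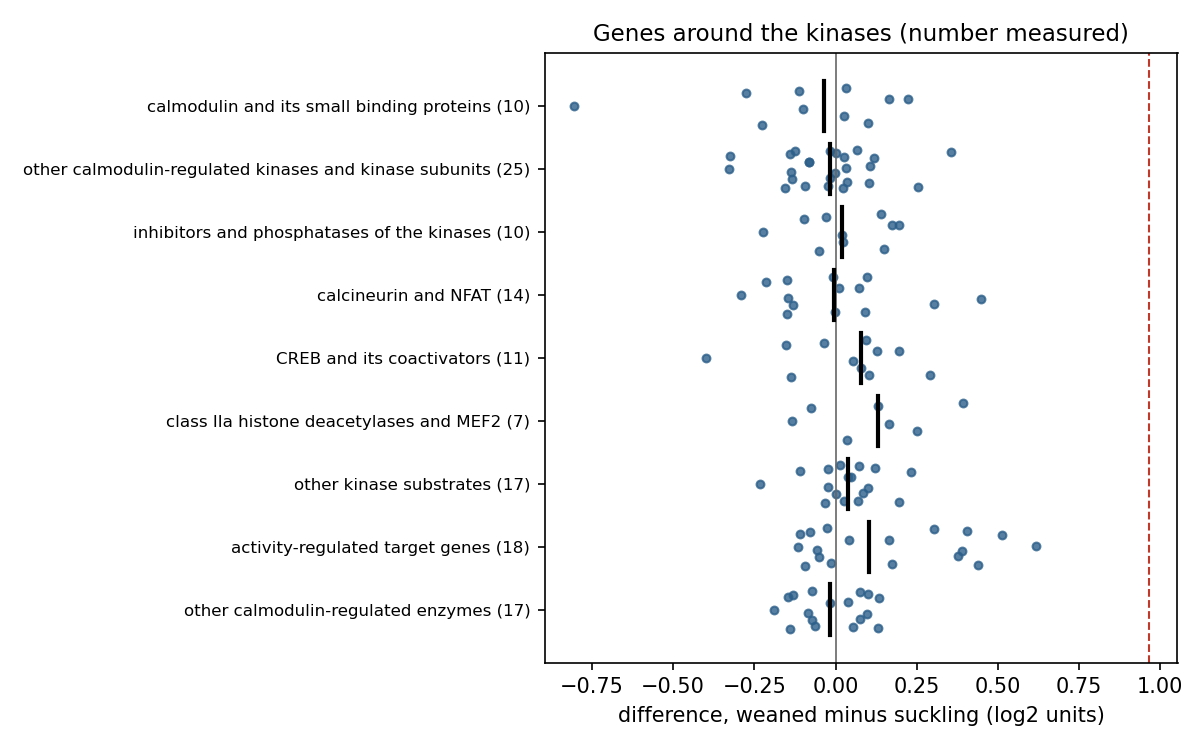
Log2 difference, weaned minus suckling, of each measured gene in the 9 pathway lists (points), with the list median as a black bar and the number of genes in brackets. The dashed line marks the Camk1g difference of 0.96. The list medians lie between -0.04 and 0.13, and the lowest point is Nrgn at -0.81.

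Calmodulin itself differed little. Calm2 was bright, at 11.5 ± 0.16 in the weaned group (SD, n = 3) and 11.4 ± 0.07 in the suckling group (n = 4), with a difference of 0.03 (SE 0.11, interval -0.23 to 0.28), and its other probe set gave -0.04. Calm3 differed by 0.16 (SE 0.12, interval -0.09 to 0.42). Of the 10 measured genes of calmodulin and its small binding proteins, the weaned mean was higher for 5 and lower for 5 (median difference -0.04). Nrgn, neurogranin, which binds calmodulin when calcium is low, had the smallest p of all pathway genes. It was 3.42, 3.29 and 3.58 on weaned replicates 4, 5 and 12. On suckling replicates 2, 9, 11 and 12 it was 4.23, 4.23, 4.57 and 3.92. The groups do not overlap and the weaned arrays sit just above background, but the difference of -0.81 (SE 0.16) missed the threshold over all genes (limma, adjusted p = 0.313).

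Other calmodulin-regulated kinases showed no shared direction, with 11 of 25 higher in mean and a median of -0.02. Dclk2, a microtubule-associated kinase of the doublecortin-like group, differed by 0.36 (SE 0.16, limma adjusted p = 0.653), and Itpka, an inositol trisphosphate kinase, by -0.33 (SE 0.13, limma adjusted p = 0.637) with its weaned mean at background. Among 10 inhibitors and phosphatases of the kinases, 6 were higher in mean and the median was 0.02. The CaMKII inhibitor genes Camk2n1 and Camk2n2 differed by 0.20 (SE 0.12) and 0.15 (SE 0.12), and Ppp2ca, a catalytic subunit of protein phosphatase PP2A, by -0.22 (SE 0.15). None of these 3 passed (limma, adjusted p of 0.737, 0.815 and 0.779). Without weaned replicate 4 the difference was 0.22 for Dclk2, 0.06 for Camk2n2 and -0.38 for Ppp2ca, and without weaned replicate 12 that of Ppp2ca was -0.11.

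The calcineurin and NFAT list, the phosphatase arm of calmodulin signalling, had 6 of 14 higher in mean and a median of -0.005. Nfatc1 and Nfatc2, calcineurin-activated transcription factors, differed by 0.45 (SE 0.19) and 0.30 (SE 0.12), with limma adjusted p of 0.651 and 0.638, and Nfatc1 by 0.29 without suckling replicate 2. The calcineurin subunit gene Ppp3ca differed by -0.001 (SE 0.15, interval -0.33 to 0.33) and the calcineurin-induced inhibitor Rcan1 by -0.21 (SE 0.14). Of CREB and its coactivators, 7 of 11 were higher in mean with a median of 0.08. Crtc2, a CREB coactivator that calcium and cAMP release to the nucleus, stood at 7.19 to 7.36 in weaned and 6.72 to 7.09 in suckling mice. Those groups do not overlap, and the difference of 0.29 (SE 0.13) missed the threshold (limma, adjusted p = 0.651). Creb1 differed by 0.08 (SE 0.15) and the repressor-forming gene Crem by -0.40 (SE 0.20), or -0.62 without weaned replicate 4 and -0.25 without weaned replicate 12.

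Downstream genes were spread around 0. Class IIa histone deacetylases and MEF2 factors, a substrate and transcription pair of these kinases, had 5 of 7 higher in mean and a median of 0.13, with Hdac9 at 0.39 (SE 0.16) and Mef2a at 0.25 (SE 0.19). Hdac9 was at 0.21 without weaned replicate 12, and Mef2a at 0.08 without weaned replicate 5 and 0.46 without weaned replicate 4. Other substrates had 12 of 17 higher and a median of 0.04, with Prkag2, a subunit of AMP-activated kinase, at 0.23 (SE 0.12) and Akt1 at 0.20 (SE 0.12). Activity-regulated target genes had 10 of 18 higher and a median of 0.10. Egr1 differed by 0.51 (SE 0.25), Fos by 0.41 (SE 0.30) and Nr4a1 by 0.38 (SE 0.18). Weaned replicate 5 carried the highest value of each, and without it the differences were 0.16 for Egr1, 0.01 for Fos and 0.19 for Nr4a1. Camk1g on that array (5.56) was between the other weaned arrays. Calmodulin-regulated enzymes and pumps had 8 of 17 higher and a median of -0.02, with the plasma membrane calcium pump gene Atp2b1 at -0.19 (SE 0.13) and the scaffold gene Iqgap1 at 0.13 (SE 0.11).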

How the data were processed

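The deposited intensity values, 1 per probe set and array, were made by the authors with RMA and Partek 6.6, per the submitters' processing notes, which give no order or settings. They lie on a linear scale (1.45 to 12755), so log2 was taken first. RMA summarises probes across arrays and compresses dim differences. RNA was amplified from small sorted samples, per the labels' protocols, and array number limits the precision. No genome build is given in the sources used here for the array.

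All 7 value columns were used. Of 35556 probe sets, 21789 carry 1 gene symbol, 1621 several and 12146 none, and 21698 symbols were matched to RefSeq by gene ID. For genes with several probe sets the brightest stood for the gene. Groups were compared with limma 3.58.1 (R 4.3.3; lmFit, eBayes, no covariate, two-sided) over 19938 genes, with Benjamini-Hochberg adjustment over all of them; 3 genes passed 0.05. The fit was tested on simulated data. Intervals are at 95%.

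Named genes are the kinase family, the 2 genes of smallest p in each pathway list where none passed, a fixed set of 10 pathway genes and the 5 profiles nearest to Camk1g. The family and lists were chosen with earlier results of these data known. Alternatives covered variance prior, scaling, filtering, probe set choice, array weights, acinar and Y-linked covariates, thresholds and leaving out arrays. The background range, the chromosomal neighbours and the fit without suckling replicates 2 and 9 were added after the data were seen.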

Additional observations from a re-analysis of the deposited data

Results flagged for a closer look

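In 5 of 57 series of suckling values examined, 1 of the 4 arrays lay far from the others, as the gap to its nearest neighbour divided by the whole range. Chance gives about 1 in 20. The ratio was 0.878 for Camk2n2, where suckling replicate 2 was low (5.20 against 5.40 to 5.42 log2 units). It was 0.95 for Mef2a, also low on suckling replicate 2 (6.06 against 6.42 to 6.44). For Iqgap1 it was 0.895, with suckling replicate 12 high (8.54 against 8.28 to 8.30). For Mfng it was 0.858, with suckling replicate 9 low (3.22 against 3.62 to 3.69). The list mean of other calmodulin-regulated enzymes gave 0.858, with suckling replicate 2 low (4.51 against 4.56 to 4.57). None of the 9 kinase genes had such an array. Groups of 3 were not examined.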

How the results depend on the processing

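The Camk1g difference of 0.96 ran from 0.86 to 1.07 over 16 alternatives, and from 0.91 to 1.07 with 1 array left out. The other kinase genes moved by less than their spread within groups under these 16, and the sign turned for Camk2d and Camk4, as given above. None of the 9 was called by limma under any of them. The count of all genes called by limma, 3 as reported, was 9 with a trend and robust prior, 5 with quantile normalization, 6 with arrays centred on their medians, 7 without the dimmest 25% of genes and 5 with probe sets averaged per gene. It was 9 with all probe sets as separate rows, 7 at an adjusted p under 0.1, 1 to 3 with 1 array left out, and 0 without suckling replicates 2 and 9 together (limma, 1089 genes at an unadjusted p under 0.05). The single-array fits with 1 call were those without weaned replicate 4 or 5 or suckling replicate 9, 11 or 12. Centring on medians split the genes at an unadjusted p under 0.05 into 1184 higher and 434 lower, beside 875 and 637 as reported, and moved the median of all genes by 0.035. No pathway gene was called under any of its alternatives. Of the 24 named pathway genes, Calm2, Ppp3ca and Creb1 changed sign under some. No paired analysis was made because the labels name no pairs of mice.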
